A study of Drosophila melanogaster with 56 samples.

Results

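Cytoplasmic ribosomal protein genes of *Drosophila melanogaster* were followed through embryogenesis as a set of 60 genes, named by FlyBase identifier for what they encode and not for how they behaved. Of these, 24 encode proteins of the small (40S) subunit, 33 encode proteins of the large (60S) subunit, and 3 (*RpLP0*, *RpLP1* and *RpLP2*) encode the stalk of the large subunit. The 40S genes include *sta* (*stubarista*), which carries no RpS symbol. The count files held 17558 gene identifiers, and all 60 genes were present in every file and among the 11065 genes with enough counts to be tested. The samples were whole embryos of the wild-type strain Oregon_R, without any treatment, collected in short egg-laying windows and processed at once (0 h) or aged, with samples each hour up to 6 h and every 2 h from then until 20 h. Each of the 14 time points had 4 biological replicates, which made 56 libraries of polyA RNA, and the comparisons below set later against earlier time points of this single genotype. Each sample was a pool of whole embryos.

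Ribosomal proteins assemble with ribosomal RNA into subunits. The 40S subunit reads the mRNA, the 60S subunit joins amino acids, and its stalk recruits translation factors. In the fly many of these genes are Minute loci, at which loss of a gene copy slows development and shortens bristles. The egg is loaded with maternal ribosomes and maternal ribosomal protein mRNA, and the embryo takes over transcription at the maternal-to-zygotic transition (MZT). Ribosomal protein mRNAs are among the most abundant in growing cells and start with a pyrimidine tract, through which their translation responds to TOR signalling.

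The libraries held between 13422473 and 22536043 counts on genes (median 16709769.5), of which mitochondrially encoded genes took between 2.77% and 22.2%. None of the 84 replicate pairs was identical. A count of 3 reads, used as the floor, came to between 0.133 and 0.224 CPM (counts per gene scaled to library size) and covers counting error only. Several libraries stood apart from the others of their time point. In 0 h replicates 1, 2 and 3 the muscle myosin gene *Mhc* stood at 262, 273 and 337 CPM, against 12.1 CPM in 0 h replicate 4. *Mhc* also ran between 73.9 and 223 CPM at 2 h and between 68.1 and 192 CPM at 6 h, highest in replicate 1 both times. In 18 h replicate 4 it was at 3765 CPM, against a range of 416 to 1052 CPM in the other 18 h libraries. In 10 h replicate 4 the summed level of 8 eggshell and yolk markers was 101 CPM, against a range of 1.62 to 3.08 CPM in the other 10 h libraries. In 20 h replicate 2 this sum was 17.0 CPM, against a range of 1.18 to 2.59 CPM in the other 20 h libraries. In the 20 h libraries, *Mhc* was between 2981 and 4213 CPM, against 33.8 to 67.9 CPM at 1 h. Other markers split the libraries of 20 h and of 3 h by replicate. The neuronal gene *elav* was at 318 and 338 CPM in 20 h replicates 1 and 2 and at 111 and 116 CPM in replicates 3 and 4, and the cuticle gene *Edg78E* was at 1.35 and 0.177 CPM in the first pair and at 22.9 and 18.5 CPM in the other. The gap gene *kni* was at 116 and 130 CPM in 3 h replicates 1 and 2 and at 41.4 and 38.6 CPM in replicates 3 and 4, where *elav* was at 113, 74.2, 165 and 178 CPM in replicates 1 to 4. The libraries in which ribosomal protein genes themselves stood apart are described beside the results they touch.

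The share of all gene counts that fell on the 60 genes is a value within each library and does not depend on scaling between libraries. At 0 h the share was 5.76%, 4.98%, 4.72% and 4.87% in the 4 replicates. At 1 h it was 4.20%, 4.13%, 4.37% and 5.70%, and at 2 h it was 5.48%, 5.96%, 8.53% and 5.91%. The early libraries thus overlapped, with 1 h replicate 4 and 2 h replicate 3 above the others of their time point. At 3 h all replicates were higher than every earlier library, with 9.25%, 10.4%, 10.0% and 10.2%. The mean share was 9.98% ± 0.505 at 3 h, against 6.47% ± 1.39 at 2 h (SD, n = 4 each), a ratio of 1.54. Afterwards the mean stayed between 8.51% (8 h) and 11.9% (14 h), and it was 9.57% ± 1.11 at 20 h, against 4.60% ± 0.740 at 1 h (SD, n = 4 each), a ratio of 2.08. At 14 h the replicates were far apart, with 8.81%, 14.8%, 9.84% and 14.3%, so that the highest mean of the time course rested on replicates 2 and 4.

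**Figure D1:**
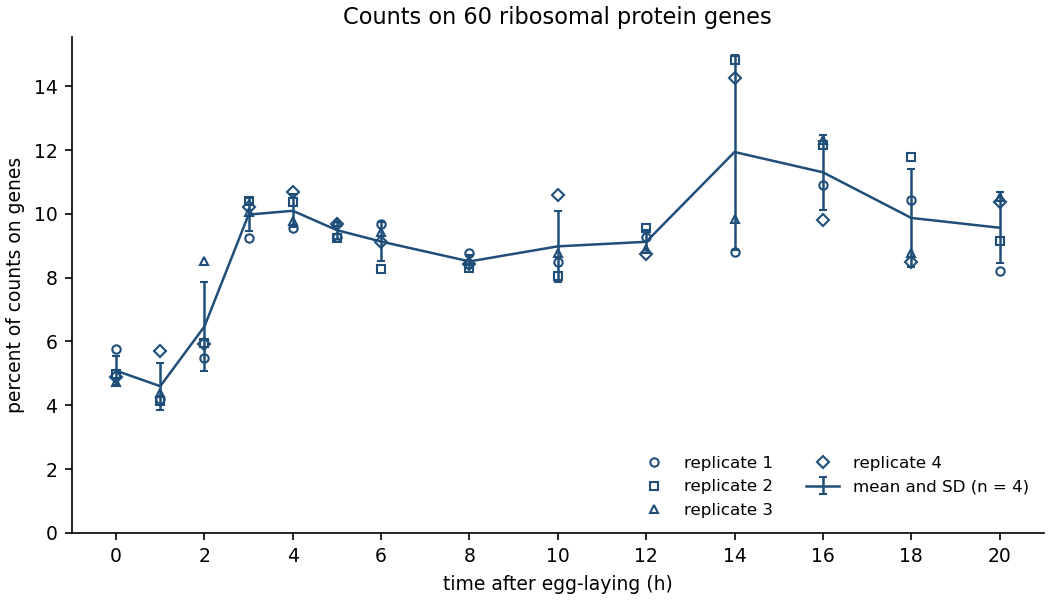
Percent of counts on genes (vertical axis) that fell on the 60 ribosomal protein genes in each library, against time after egg-laying in hours; symbols are replicates, and the line and bars are mean and SD (n = 4). The 4 libraries at 3 h lie between 9.25% and 10.4%, above all libraries of 0, 1 and 2 h, and the 14 h libraries spread between 8.81% and 14.8%.

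Where the genes stood apart in a library, genes of other lengths moved as well. Each library was set against the mean of its time point on the log2 CPM scale. The median of the 60 genes lay more than 0.2 from that mean in 11 of the 56 libraries. In all 11 of these the median of 1606 other genes with under 1000 exon bases lay on the same side, and that of 2045 genes with 4000 or more exon bases lay on the opposite side. In 2 h replicate 3, the ribosomal protein genes stood at 0.44, short genes at 0.09 and long genes at -0.20. In 14 h replicate 2 these values were 0.28, 0.08 and -0.51, and in 14 h replicate 1 they were -0.38, -0.20 and 0.33. Of the 60 genes, 30 had under 1000 exon bases (50%), against 15.9% of 10171 other protein-coding genes tested. The part of transcript length in the differences between libraries and time points was not tested.

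**Figure D2:**
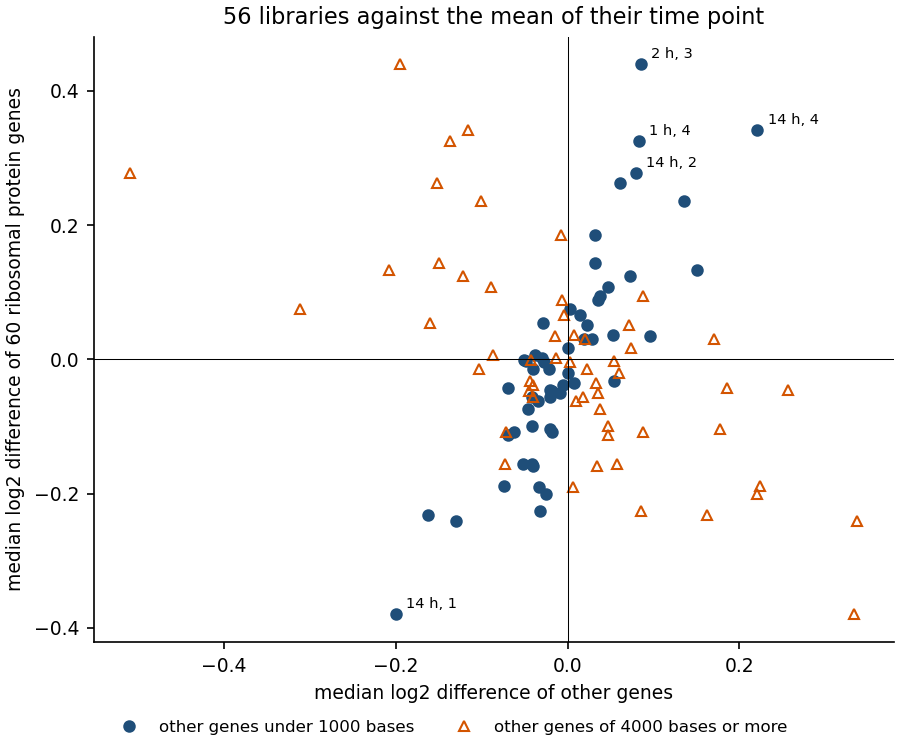
Median log2 difference of the 60 ribosomal protein genes from the mean of their time point (vertical axis) against the same median for other genes (horizontal axis) in the 56 libraries; filled circles stand for genes under 1000 exon bases and open triangles for genes of 4000 exon bases or more. Labels give the time point and replicate. In 49 of the 56 libraries the ribosomal protein genes and the short genes lay on the same side of 0. The ribosomal protein genes and the long genes lay on opposite sides in 42 of the 56.

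Levels of the individual genes were compared as RPKM (counts scaled to library size and to the length of the annotated exons), as a mean over the 14 time points. They ran between 90.7 RPKM and 3412 RPKM with a median of 1472 RPKM. The highest were *RpS27A* (3412 RPKM), which encodes a fusion of ubiquitin with a 40S protein, *RpL39*, which encodes a very small protein at the exit tunnel of the 60S subunit, and *RpS3A* (3222 RPKM), the only one of the 60 genes on chromosome 4. The lowest were *RpL22* (90.7 RPKM), *RpS5b* (272 RPKM) and *RpS21* (573 RPKM). *RpL22*, on the X chromosome, shares 377 of its 1100 exon bases with the noncoding gene lncRNA:CR42491 on the same strand, and reads in such stretches are credited to neither gene in the counting mode used. With the median length of the annotated transcripts in place of all joined exons, *RpS3A* had the highest RPKM. *RpS21* moved up to rank 53 of the 60 genes by that measure, with 976 RPKM, and *RpL23A* took its rank of 58. *RpL22* and *RpS5b* kept ranks 60 and 59. The order at the top and the gene at rank 58 therefore depended on the gene model.

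At 1 h against 0 h no ribosomal protein gene passed the test. By the quasi-likelihood test of edgeR, with p adjusted over all genes by the method of Benjamini and Hochberg, 0 of 60 were higher and 0 were lower, where 3.97% of all genes tested were called higher and 15.4% lower. None of the 60 had an unadjusted p under 0.05, and DESeq2 called 0. Their log2 fold changes ran between -0.25 and 0.03 with a median of -0.10, next to -0.09 for all genes tested.

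At 2 h the genes were higher than at 1 h, with a median change above that of all genes tested. The test called 59 of 60 higher (49.3% of all genes tested) and 0 lower (20.1% of all genes), with 0 lower also by unadjusted p and by DESeq2. The median log2 fold change was 0.91, against 0.75 over all genes tested. When only library totals were used for scaling, these medians were 0.51 and 0.36. The size of this change thus depended on the scaling, while the order of both medians did not. Without replicate 3, whose 2 h library stood apart, the medians were nearly equal, at 0.66 and 0.64. With the 8 libraries of 1 and 2 h fitted alone, 19 genes were called higher, with medians of 0.37 and 0.06. *RpL32* (FBgn0002626), long known as *rp49* and widely used as a reference gene for quantitative PCR, had 593, 650, 1067 and 699 RPKM at 2 h, against 413, 451, 488 and 743 RPKM at 1 h. These groups overlapped through 1 h replicate 4. Its log2 fold change was 0.93 ± 0.19 (SE, edgeR adjusted p = 2.8e-05). *RpL38* was the gene that was not called, at 0.35 ± 0.34 (SE, edgeR adjusted p = 0.35).

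Between 2 h and 3 h, across the MZT, the genes parted from the rest of the transcriptome. The test called 51 of 60 higher (31.1% of all genes tested) and 0 lower (34% of all genes), with 0 lower also by unadjusted p and by DESeq2, which called 58 higher. The median log2 fold change was 0.50, against -0.11 over all genes. With library totals these medians were 0.64 and 0.05, with size factors 0.65 and 0.05, and without mitochondrial genes 0.73 and 0.13. The sign of the median of all genes thus depended on the scaling, while the order of both medians did not. *RpL32* had 1366, 1490, 1462 and 1516 RPKM at 3 h, with every library above the 2 h values just given, and its log2 fold change was 0.81 ± 0.19 (SE, edgeR adjusted p = 0.0002). The largest changes were in *RpL38* (1.15 ± 0.35, SE, edgeR adjusted p = 0.0037) and *RpL30* (0.95 ± 0.19, SE, edgeR adjusted p = 3.1e-05), both of the 60S subunit. The 9 genes not called were *RpLP0*, *RpLP2*, *RpL4*, *RpL17*, *RpL23A*, *RpL35A*, *RpS16*, *RpS19a* and *RpS26*, the last with the smallest log2 fold change of 0.18. Without replicate 1 the number higher was 31, and without replicate 3, whose 2 h library stood apart, it was 60. By subunit, 21 of 24 genes of the 40S subunit, 29 of 33 of the 60S subunit and 1 of 3 of the stalk were called higher.

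From 3 h on the median changes of the set between the time points compared were smaller than at 3 h against 2 h. At 6 h against 3 h, 0 genes were higher (25% of all genes tested, and 0 also by unadjusted p and by DESeq2) and 5 were lower (24.6% of all genes). These were *RpLP0*, *RpL4*, *RpL17*, *RpL27* and *RpS5b*. The median log2 fold change was -0.25, against 0.16 over all genes. With library totals these medians were -0.12 and 0.26. They were -0.44 and -0.12 with the 8 libraries of 3 and 6 h fitted alone. The number of genes called lower was not stable. It was 57 when the 8 libraries of 3 and 6 h were fitted alone, 50 when 7 libraries of 0, 1, 2 and 14 h that stood apart were left out of the fit, and 2 without replicate 2. In the share of counts the difference was small, at 9.13% ± 0.609 at 6 h and 9.98% ± 0.505 at 3 h (SD, n = 4 each).

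At 12 h against 6 h, 1 gene was higher (20.9% of all genes tested) and 2 were lower (27.8% of all genes). The lower genes were *RpS5b* and *RpS3A*. The medians of the set and of all genes were -0.17 and -0.15. The call for the higher gene was lost when any replicate was left out. The call for *RpS3A* (-0.37 ± 0.14, SE, edgeR adjusted p = 0.023) was lost under 8 alternatives, among them scaling by library totals (-0.20). That for *RpS5b* (-1.35 ± 0.21, SE, edgeR adjusted p = 9.6e-07) held in all alternatives.

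At 20 h against 12 h, 4 genes were higher (37.8% of all genes tested) and 1 was lower (39% of all genes). Among the higher genes were *RpL38*, *RpL13A* and *RpLP0*, and the lower one was *RpS5b*. The medians were 0.18 for the set and -0.06 for all genes. With the size factors of DESeq2 in place of TMM, 36 were higher and 1 lower, and the median of all genes moved to 0.14. DESeq2's own test called 38 higher. Without the 7 libraries that stood apart, 2 were higher and 2 lower. The mean share of counts differed by less than the spread between replicates, with 9.57% ± 1.11 at 20 h and 9.13% ± 0.362 at 12 h (SD, n = 4 each).

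Over the whole course, at 20 h against 1 h, 59 of the 60 genes were higher (49.7% of all genes tested) and 1 was lower (39.9% of all genes). By at least 2-fold, 40 were higher (44.5% of all genes) and 1 was lower (30.3% of all genes). The median log2 fold change was 1.10, against 0.46 over all genes tested. Among the largest changes was that of *RpL38* (2.56 ± 0.36, SE, edgeR adjusted p = 1.3e-08). The smallest increase was in *RpL4* (0.41 ± 0.13, SE, edgeR adjusted p = 0.0035), a call that was lost without the 7 libraries that stood apart (0.25, adjusted p = 0.053), and *RpS5b* fell. The median over 33 genes of the 60S subunit was 1.21, over the 3 stalk genes 1.18 and over 24 genes of the 40S subunit 1.03.

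**Figure D3:**
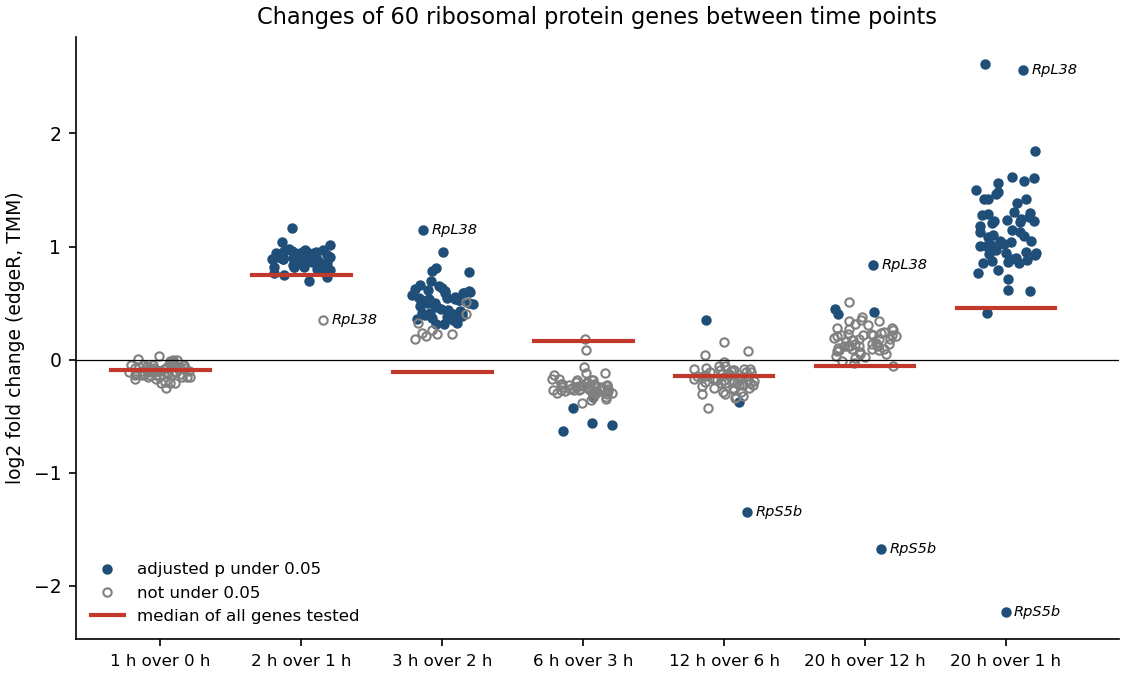
Log2 fold change (edgeR with TMM scaling, vertical axis) of each of the 60 ribosomal protein genes in 7 comparisons of a later over an earlier time point (horizontal axis). Filled points had an adjusted p under 0.05, open points did not, and the red bar is the median of all 11065 genes tested. The genes lie in a narrow band in every comparison, apart from a few genes, among them *RpS5b* and *RpL38*, and the band lies clearest above the red bar at 3 h over 2 h and at 20 h over 1 h.

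Most of the genes roughly kept their proportions to each other. Each gene was taken as a share of the summed counts of the 60 genes. The SD of its log2 share over the 14 time point means had a median of 0.10, against a median SD of 0.41 for log2 CPM. The median SD between replicates of the log2 share was 0.076. This is a spread of single libraries, so it is not on the same footing as the SD over means of 4 libraries. For 49 of 60 genes the SD over time was under 0.2. Among the most even were *RpS16* (0.034) of the 40S subunit and *RpL18* (0.041) of the 60S subunit. Among the least even were *RpS5b* (1.22) and *RpL38* (0.47). *RpS16* had 2064, 2224, 2268 and 2294 RPKM at 3 h, against 997, 952, 961 and 1293 RPKM at 1 h, so the evenness was one of proportion and not of level.

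Profiles of log2 CPM over the 14 time point means were compared as a description, without a test, since all genes share the libraries, their depth and their scaling. Over 1770 pairs of genes Pearson's r had a median of 0.956, and 53 of 60 genes had an r above 0.9 with the median profile of the set. Those below were *RpS5b* (-0.34), *RpL4* (0.64), *RpS3A* (0.74), *RpL35A* (0.84), *RpL17* (0.86), *RpLP0* (0.87) and *RpL38* (0.88). The lowest level fell at 1 h in 58 genes, at 2 h in *RpL38* and at 20 h in *RpS5b*. The highest fell at 14 h in 28 genes and at 16 h in 27. Without 14 h replicates 2 and 4, however, 44 genes were highest at 16 h and 7 at 4 h. The highest mean level was 2.68 times the lowest in the median gene, with a range of 1.84 (*RpL4*) to 11.0 (*RpS5b*).

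**Figure D4:**
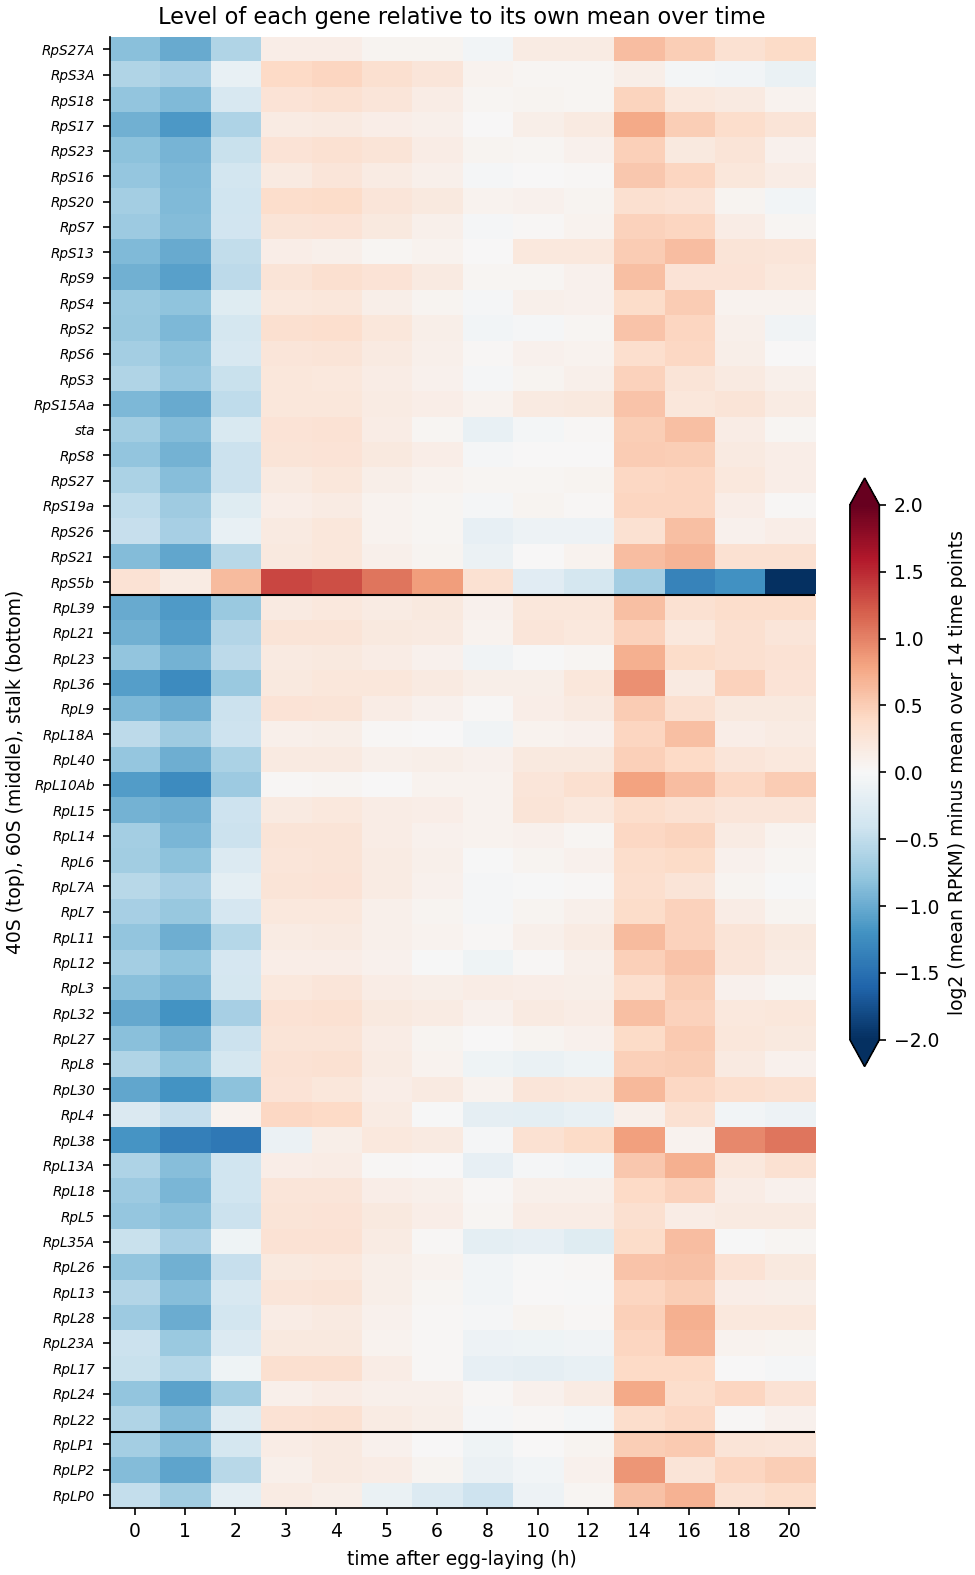
Mean RPKM of 58 of the ribosomal protein genes (rows, grouped as 40S, 60S and stalk and ordered by mean level within each) at each time point in hours (columns), as log2 difference from the gene's own mean over the 14 time points (colour). Nearly all rows are blue at 0, 1 and 2 h and pale red afterwards, while *RpS5b* turns from red at 3 h to blue at 20 h.

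For genes that serve as references the window mattered. Over all 14 time points the SD of log2 CPM was 0.41 in the median ribosomal protein gene and 0.86 in the median of all genes tested. For *RpL32* it was 0.55, and 24.2% of all genes tested were more constant. Between 3 and 20 h, *RpL32* had an SD of 0.14, and 0.678% of genes were more constant. *RpL15* is a 60S gene to whose level the study normalised its quantitative PCR in separate experiments. It had an SD of 0.075 in this window, and 0.027% of genes were more constant. All these SDs are over time point means. Between replicates of a time point, the SD of log2 CPM was larger, with a mean over the 14 time points of 0.14 for *RpL15* and 0.20 for *RpL32*. *RpL15* had 1937, 2150, 2402 and 2564 RPKM at 20 h, against 1944, 2167, 2211 and 2379 RPKM at 3 h, groups that overlapped. At 1 h it had 793, 922, 949 and 1210 RPKM, below all of these.

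The clearest fall was in *RpS5b* (FBgn0038277), a gene of the 40S subunit that lies on the minus strand of 3R:14900432-14901563 (BDGP6), with exons that overlap those of no other annotated gene. In the fly it is known for its enrichment in the ovary. No snoRNA gene lies inside it. Reads that fit many places in the genome were not counted, so sequence shared with other genes can be missing from its counts.

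*RpS5b* mRNA had 36.2, 55.99, 57.5 and 52.8 RPKM at 20 h, against 250, 220, 242 and 277 RPKM at 1 h. It was above the 1 h values at 3 h, with 510, 620, 566 and 529 RPKM, and at 6 h, with 405, 327, 425 and 411 RPKM, and below them at 12 h, with 170, 188, 186 and 145 RPKM. The libraries of 3, 6, 12 and 20 h did not overlap. *RpS5b* was thus one of 51 genes that rose at 3 h against 2 h (0.56 ± 0.21, SE, edgeR adjusted p = 0.02), although this call was lost without replicate 1 (adjusted p = 0.099). It was the one gene that fell in each later step, by 0.63 on the log2 scale at 6 h against 3 h (edgeR adjusted p = 0.011, and 0.051 without replicate 2), by 1.35 at 12 h against 6 h (edgeR adjusted p = 9.6e-07) and by 1.67 at 20 h against 12 h (edgeR adjusted p = 4e-09). At 20 h against 1 h its log2 fold change was -2.23 ± 0.22 (SE, edgeR adjusted p = 1e-12). In whole embryos, fewer cells with a transcript and less of it per cell cannot be told apart.

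**Figure D5:**
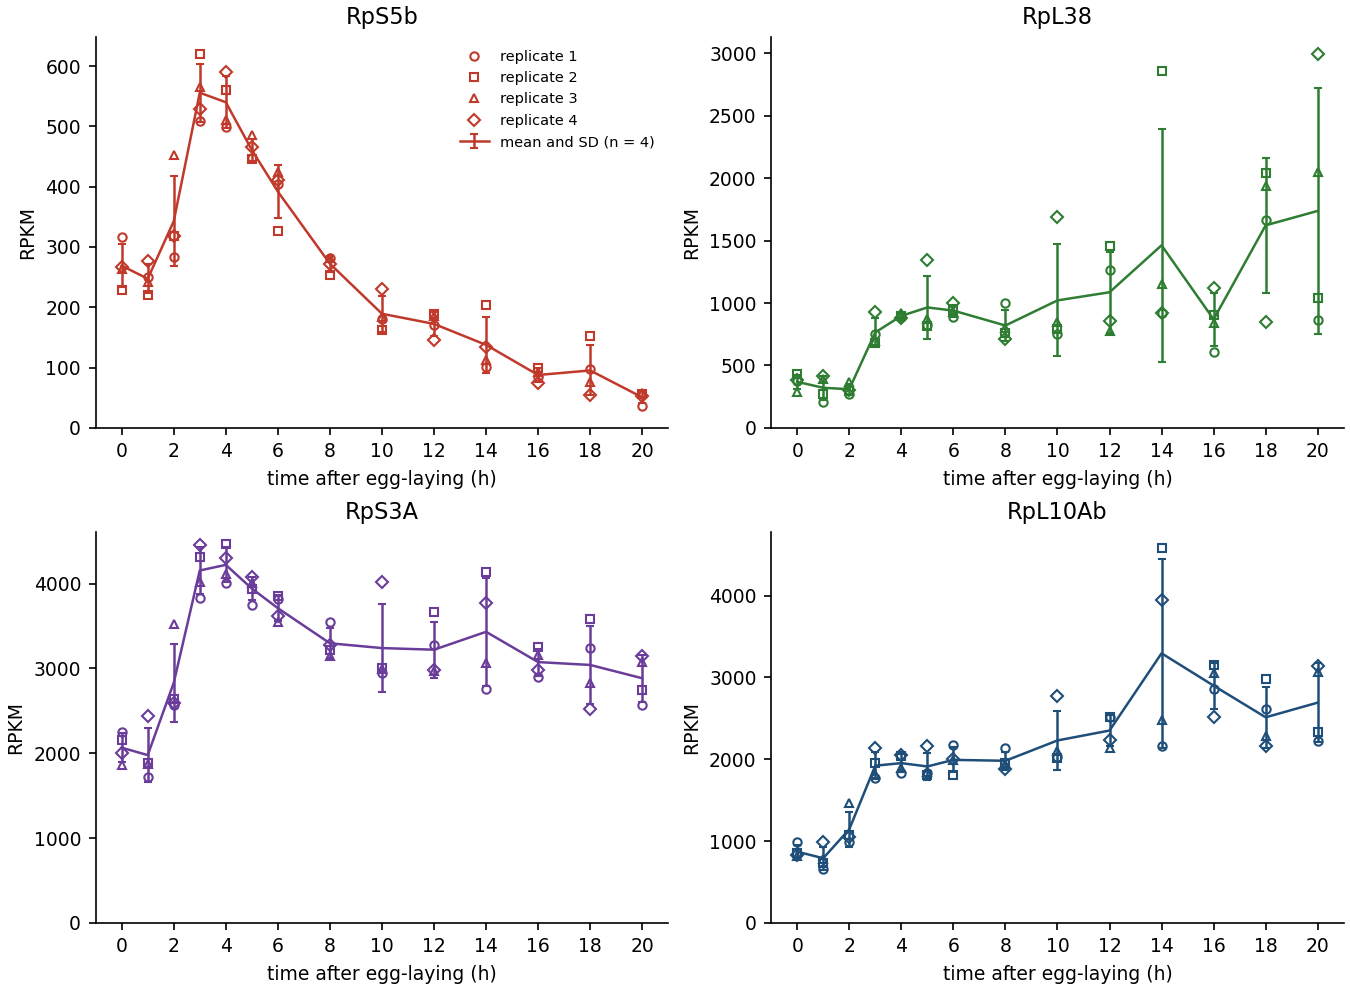
RPKM of *RpS5b*, *RpL38*, *RpS3A* and *RpL10Ab* (vertical axes) against time after egg-laying in hours; symbols are replicates, and lines and bars are mean and SD (n = 4). *RpS5b* peaks at 3 h, with 510 to 620 RPKM, and ends between 36.2 and 57.5 RPKM at 20 h, the *RpL38* libraries at 20 h spread between 868 and 2994 RPKM, *RpS3A* has its highest mean at 4 h, with 4222 RPKM, and *RpL10Ab* ends between 2225 and 3141 RPKM.

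In 3 pairs of ribosomal protein genes the annotated second copy was far below its partner throughout. *RpS15Ab*, the partner of *RpS15Aa* of the 40S subunit, had 662, 1251, 773 and 608 counts at 20 h, against 312, 357, 467 and 426 counts at 1 h. *RpS15Aa* had 18674, 30879, 28080 and 22708 counts at 20 h, against 9619, 10480, 11878 and 12491 counts at 1 h. The log2 ratio of *RpS15Ab* to *RpS15Aa* was -4.96 ± 0.289 at 20 h and -4.84 ± 0.119 at 1 h (SD, n = 4 each, two-sided exact permutation p = 0.514, and 0.514 adjusted over 8 paralog comparisons), a difference within the spread between replicates. In between the ratio was higher, with -4.19 ± 0.0560 at 5 h, -3.84 ± 0.0497 at 8 h and -4.04 ± 0.0875 at 12 h (SD, n = 4 each), and the 4 libraries of each of these times lay above all of 1 h and of 20 h. These values were chosen after they were seen and were not tested.

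*RpS19b* and *RpL22-like*, copies known in the fly for expression in the germ line, were near the floor of 3 counts at 1 h, so no fold is given for them. *RpS19b* had 22, 33, 27 and 17 counts at 20 h, against 2, 0, 2 and 4 counts at 1 h, while its partner *RpS19a* had between 13620 and 20431 counts at 20 h. *RpL22-like* had 47, 65, 43 and 25 counts at 20 h, against 0, 3, 0 and 2 counts at 1 h, while *RpL22* had between 1366 and 2335 counts at 20 h. The ratio of the copy to its partner was higher at 20 h than at 1 h in both pairs (exact permutation p = 0.0286 each, the smallest that 4 against 4 libraries can give, adjusted 0.0457). At 3 h against 1 h it was higher for *RpS19b* (exact permutation p = 0.0286, adjusted 0.0457), but did not pass for *RpL22-like* (exact permutation p = 0.229, adjusted 0.261).

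*RpL38* (FBgn0040007), a 60S gene on chromosome 2R whose mouse counterpart is known for a role in the translation of Hox mRNAs, was the most variable of the set between replicates. It had 868, 1038, 2052 and 2994 RPKM at 20 h, against 1262, 1455, 774 and 854 RPKM at 12 h. These groups overlapped, and no replicate number was high at both times. The split at 20 h, with replicates 1 and 2 below replicates 3 and 4, was that of *elav* and *Edg78E*, whose part in it was not tested. Its log2 fold change of 0.84 ± 0.34 (SE, edgeR adjusted p = 0.026) was 0.24 without replicate 4 (adjusted p = 0.517) and 0.67 without replicate 3 (adjusted p = 0.182). The early change was steadier. *RpL38* had 750, 680, 698 and 931 RPKM at 3 h, against 268, 293, 370 and 305 RPKM at 2 h, with no overlap. At 1 h it had 208, 271, 390 and 416 RPKM, which overlapped the 2 h values.

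*RpL4* (FBgn0003279), whose protein reaches into the exit tunnel of the 60S subunit, and *RpLP0* (FBgn0000100), the base of the stalk, were among the 5 genes lower at 6 h than at 3 h. *RpL4* had 1160, 848, 1129 and 1034 RPKM at 6 h, against 1359, 1493, 1489 and 1275 RPKM at 3 h, without overlap (-0.56 ± 0.13, SE, edgeR adjusted p = 0.00041). *RpLP0* had 901, 758, 816 and 834 RPKM at 6 h, against 1166, 1277, 1041 and 1011 RPKM at 3 h, also without overlap (-0.58 ± 0.13, SE, edgeR adjusted p = 0.00024). Both calls held in every alternative. They differed afterwards. *RpLP0* was higher at 20 h than at 12 h (0.42 ± 0.13, SE, edgeR adjusted p = 0.0032), with 1134, 1344, 1396 and 1306 RPKM at 20 h, against 1064, 976, 1038 and 1034 RPKM at 12 h. *RpL4* was at 0.12 ± 0.13 in that comparison (SE, edgeR adjusted p = 0.39).

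*RpS3A* (FBgn0017545) peaked early. Its mean RPKM by time was 1979 (1 h), 4156 (3 h), 4222 (4 h), 3222 (12 h) and 2885 (20 h). It took 4.08% of the counts of the set at 20 h, against 5.81% at 1 h. *RpL10Ab*, which forms the mobile L1 stalk of the 60S subunit, was among those that rose most over the course, with a log2 fold change of 1.84 at 20 h against 1 h. *RpL10Ab* had 2225, 2328, 3070 and 3141 RPKM at 20 h, against 662, 728, 782 and 987 RPKM at 1 h. It was named after its values were seen, as were *RpL13A*, *RpL17* and *RpL27*.

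The balance of the subunits moved little. The summed RPKM of 40S genes over that of 60S and stalk genes was 0.725, 0.723, 0.700 and 0.682 in the libraries of 20 h, against 0.783, 0.787, 0.761 and 0.776 in those of 1 h. The mean by time was 0.777 (1 h), 0.795 (2 h), 0.783 (3 h), 0.777 (6 h), 0.746 (12 h) and 0.708 (20 h). The 20 h libraries lay below all of 1 h, although the ratio differed by under 0.1. With medians over the genes in place of sums, the ratio was 1.24 (1 h), 1.33 (3 h) and 1.16 (20 h).

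Position in the genome set no group clearly apart. The genes lie on every major chromosome arm (14 on 2L, 11 on 2R, 12 on 3L, 13 on 3R, 1 on chromosome 4 and 9 on X). All 9 on X were higher at 20 h than at 1 h, with a median log2 fold change of 0.96, and 50 of 51 elsewhere, with a median of 1.13. Inside 25 of the 60 genes lie 71 snoRNA genes, the source of guides for ribosomal RNA modification. These 25 hosts were all higher at 20 h than at 1 h, with a median of 1.04, and 34 of the 35 other genes were, with a median of 1.18. Exons of 20 genes overlap exons of another annotated gene, and without them the set took 6.99% of gene counts at 3 h and 3.24% at 1 h.

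Genes that work with ribosomal proteins are given for comparison. Their counts stand beside the shares of all genes tested, which were 31.1% higher and 34% lower at 3 h against 2 h, 37.8% higher and 39% lower at 20 h against 12 h, and 49.7% higher and 39.9% lower at 20 h against 1 h. The other 23 genes with a cytoplasmic ribosomal protein symbol, several of them near-identical copies whose reads can be lost or split, moved like the set. Of 21 tested, 19 were higher at 3 h than at 2 h, with a median of 0.58, and 21 were higher at 20 h than at 1 h, with a median of 1.21. Of 29 elongation and initiation factors, 11 were higher and 4 lower at 3 h against 2 h, with a share higher near that of all genes. *eIF2beta*, a subunit of the factor that brings initiator tRNA, was at 136 CPM at 1 h, 34.8 CPM at 2 h and 156 CPM at 3 h, a change of -1.57 at 2 h against 1 h and of 1.97 at 3 h against 2 h. *eEF1alpha2*, an elongation factor, changed by 1.96 at 3 h against 2 h, with 7.80 CPM at 3 h and 1.83 CPM at 2 h. At 20 h against 12 h, 1 was higher and 19 were lower, with a median of -0.45, while DESeq2 called 4 higher and 12 lower. The higher one was *eEF1alpha2*, with the largest change of the list (1.05), at 16.5 CPM at 20 h and 7.98 CPM at 12 h. *eIF6*, which keeps free 60S subunits from joining, changed by -0.94 and *Tctp*, a growth-linked translation protein, by -0.90. The direction of this list at 20 h against 1 h depended on the scaling, with 7 higher and 14 lower by TMM and 12 higher and 7 lower by size factors.

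Genes for the assembly of ribosomes were lower late, while most of the 60 genes were not. Of 26 ribosome assembly genes tested, 11 were higher and 7 lower at 3 h against 2 h (31.1% and 34% of all genes). *Polr1A*, a subunit of the polymerase that transcribes ribosomal RNA, was at 112 CPM at 1 h, 24.5 CPM at 2 h and 117 CPM at 3 h, so that its change of 2.06 at 3 h against 2 h followed one of -1.80 at 2 h against 1 h. *Nmd3*, the export adaptor of the 60S subunit, was at 49.3 CPM at 1 h, 16.3 CPM at 2 h and 68.9 CPM at 3 h, with changes of -1.20 and 1.87. All 26 were lower and 0 higher at 20 h against 12 h (39% and 37.8% of all genes, and 0 higher also by unadjusted p and by DESeq2), with a median of -1.28. *Polr1B* changed by -1.60 and *Polr1A* by -1.57 (edgeR adjusted p = 8.6e-15 and 2.2e-11). All 26 were also lower when scaled by library totals or by size factors. The median of the 60 ribosomal protein genes in that comparison was 0.18 and that of all genes -0.06.

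Mitochondrial ribosomal proteins, which serve a separate ribosome, were mostly higher late. Of 70 genes tested, 21 were higher and 18 lower at 3 h against 2 h (31.1% and 34% of all genes), with a median of 0.02. At 20 h against 12 h, 58 were higher and 0 lower (37.8% and 39% of all genes, and 0 lower also by unadjusted p and by DESeq2), with a median of 0.51 and *mRpL10* at 1.55. Of 9 growth regulators tested, 1 was higher and 7 were lower at 20 h against 12 h (37.8% and 39% of all genes). *Thor*, the repressor of cap-dependent initiation that TOR switches off, was at 134 CPM at 20 h and 50.9 CPM at 12 h (1.48 ± 0.18, SE, edgeR adjusted p = 1.3e-09). *Myc*, a transcription factor that drives ribosome production in the fly, was at 83.3 CPM at 20 h and 318 CPM at 12 h (-1.90 ± 0.24, SE, edgeR adjusted p = 1.5e-09). *M1BP*, a factor that binds promoters of ribosomal protein genes, changed by -1.40. These lists were compared with the 60 genes by counts and medians, and the difference between lists was not tested.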

How the data were processed

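Reads of 51 bases from polyA RNA (stranded library kit) were mapped by the authors to BDGP6 (Ensembl 79) with STAR 2.4.0h, with at most 2 mismatches and without reads at more than 10 loci, and the deposited files hold raw counts per gene from htseq-count in union mode (HTSeq 0.6.1p1). Whether strand was used in counting is not given in the sources used here. Rows that name no gene (3.90% to 10.5% of a library) were left out.

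All 56 libraries entered one fit with a mean per time point in edgeR 4.0.16 (R 4.3.3, TMM scaling, filterByExpr, quasi-likelihood test), with Benjamini-Hochberg adjustment over 11065 genes per comparison and a call at an adjusted p under 0.05. On simulated counts the script was tested before use. RPKM used library totals and the joined exon length of Ensembl 115, so ratios of RPKM differ from TMM-scaled fold changes. Paralog ratios (0.5 counts added) were compared by exact permutation. Gene positions also come from Ensembl 115.

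Named were genes with a second copy, *RpL32*, *sta*, the 3 highest and lowest by level and by evenness, and the 2 largest and smallest changes in each comparison. Results of some of these genes are not reported here. The genes and lists were chosen with earlier results of these data known. Alternatives were other scalings (library totals, size factors), no filter, DESeq2 1.42.0, a fit of only the 2 time points compared, a replicate block, leaving out each replicate, and no mitochondrial genes. For 1 h against 0 h, a fit with 0 h replicate 4 alone at 0 h was a further alternative. Leaving out the libraries that stood apart and the other transcript length were added after the data were seen. Replicate numbers did not pair the libraries.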

Additional observations from a re-analysis of the deposited data

Results flagged for a closer look

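Replicates of each time point were compared for the share of counts on the set, the 40S to 60S ratio and the RPKM of 10 genes. In 20 of 168 groups of 4 libraries, the highest or lowest stood further from the next than the 95% critical gap of Dixon's test. The groups are the same 14 sets of libraries taken by each measure, and the genes rise and fall together. They are not independent, so this number cannot be set against the 1 in 20 groups that unrelated values would give. Among the libraries set apart, 2 h replicate 3, 10 h replicate 4 and 5 h replicate 4 recur. Each of the others stood apart in a single measure.

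In 2 h replicate 3 the share of counts was 8.53%, against 5.48% to 5.96% in the other 2 h libraries. *RpL4* had 1491 RPKM there (others 916 to 1003), *RpL15* 1807 RPKM (others 1252 to 1345), *RpL22* 109 RPKM (others 59.5 to 63.8), and *RpS3A* 3523 RPKM (others 2571 to 2642). In 1 h replicate 4 the share was 5.70% (others 4.13% to 4.37%). In 10 h replicate 4, which also held the eggshell and yolk transcripts, *RpL38* had 1692 RPKM (others 755 to 848), *RpL15* 2811 RPKM (others 2044 to 2136), *RpS27A* 4385 RPKM (others 3338 to 3460), *RpS3A* 4017 RPKM (others 2947 to 3002) and *RpL10Ab* 2768 RPKM (others 2016 to 2103).

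*RpL38* also stood apart in 14 h replicate 2, with 2856 RPKM (others 920 to 1153), and in 5 h replicate 4, with 1344 RPKM (others 818 to 871), where *RpL10Ab* had 2160 RPKM (others 1810 to 1846). *RpL4* had 1510 RPKM in 4 h replicate 4 (others 1342 to 1369), 1057 RPKM in 12 h replicate 3 (others 913 to 924) and a low 1056 RPKM in 16 h replicate 4 (others 1357 to 1397). *RpL32* had 1447 RPKM in 12 h replicate 2 (others 1275 to 1291). The 40S to 60S ratio was 0.772 in 0 h replicate 3 (others 0.764) and 0.779 in 3 h replicate 1 (others 0.784), differences of a small size within very close groups.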

How the results depend on the processing

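The numbers of genes called higher at 20 h against 1 h, at 3 h against 2 h and, apart from 19 in the fit of only those 2 time points, at 2 h against 1 h stayed within 1.5 times of the reported number under every whole-fit alternative. Leaving out replicates gave 31 to 60 higher at 3 h against 2 h. At 6 h against 3 h, where 5 were lower, the number was 11 with size factors, 3 with library totals, 18 without the filter, 14 by DESeq2, 57 with only those 2 time points, 26 without mitochondrial genes, 50 without the 7 libraries that stood apart, and 2 to 8 without a replicate. At 12 h against 6 h, where 1 was higher and 2 lower, it was 1 lower with size factors, without the filter and without mitochondrial genes, 2 higher and 1 lower with library totals, by DESeq2 and without the 7 libraries, 2 higher and 9 lower with only those time points, and 0 higher and 1 to 2 lower without a replicate. At 20 h against 12 h, where 4 were higher and 1 lower, 36 were higher with size factors, 38 by DESeq2, 11 without mitochondrial genes, 2 (and 2 lower) without the 7 libraries, and 1 to 13 without a replicate. The causes were not tested.

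Shares of counts were 10.7% at 3 h and 11.1% at 20 h without mitochondrial genes in the total, and 3.24%, 6.99% and 6.599% at 1, 3 and 20 h for genes without exon overlap. The 40S to 60S ratio was 1.24, 1.33 and 1.16 at these times with medians over genes. The 3 ratios of *RpS19b* and *RpL22-like* to their partners that passed their test kept their direction, although 3 against 3 libraries allow no exact p that passes. That of *RpS15Ab* to *RpS15Aa* at 20 h against 1 h, which did not pass (-0.12), was 0.0087 without replicate 3. Of 2210 log2 fold changes of the genes picked by the naming rule under alternatives, 1992 kept direction and call, 165 newly passed the threshold, 53 no longer passed and 0 of the called ones reversed. Replicate numbers did not pair the libraries (28 pairs of same-numbered libraries correlated between -0.50 and 0.44), and the replicate block gave 59, 49, 0, 1, 4 and 59 genes higher in the 6 comparisons from 2 h against 1 h on, so that it moved none of these counts by over 1.5 times.

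Limits are the scaling at early times, libraries in which long and short genes differ together with the set, and shares within a pool of whole embryos. A further limit is the selection of polyA RNA. The part of polyA tail length in the early changes was not tested.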
